A study of Mus musculus with 2 samples.

Results

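The 7 genes Grhl1, Grhl2, Grhl3, Ovol1, Ovol2, Esrp1 and Esrp2, which regulate epithelial identity, were set against Zeb1 and Zeb2, a pair of regulators of the mesenchymal state, in a map of open chromatin of the newborn mouse stomach. The genes were taken by name, with earlier results of these data known, and their measured values were not part of the rule. They are 9 of the 21911 protein-coding genes of GENCODE M21. A locus ran from 10 kb before to 10 kb after the annotated gene. A shared region was a stretch where peaks of both replicates overlapped by at least 1 bp, and the 9 loci held 76 of the 105606 shared regions of the genome, 72 in the Grhl, Ovol and Esrp loci and 4 in the Zeb loci. DNase-seq reads out where the enzyme DNase I can cut, and so where DNA is accessible. All tissue was stomach of mice of strain B6NCrl at postnatal day 0, with no allele or agent named, in 1 group of 2 biological replicates of 1 library each. The labels give both replicates 1 donor and do not record the sex, they name a pair of sequencing instruments for replicate 2 and none for replicate 1, and they do not say whether animals were pooled. With 1 group no test between conditions could be made, and the difference between the epithelial and the Zeb loci was not tested.

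Grainyhead-like factors (Grhl1, Grhl2, Grhl3) are DNA-binding activators of genes of the epithelial barrier and of cell junctions. Ovol1 and Ovol2 are zinc finger repressors, known to hold down the Zeb genes in epithelial cells, and Esrp1 and Esrp2 are RNA-binding proteins that set the epithelial pattern of splicing. Zeb1 and Zeb2 are zinc finger and homeodomain repressors that bind paired E-boxes with the core CACCTG and repress epithelial genes such as Cdh1, and the microRNAs of the miR-200 family repress both Zeb mRNAs. Stomach tissue holds epithelium together with mesenchyme, muscle and nerve. In such a mixture a site open in fewer cells and a site less open in every cell cannot be told apart.

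The E-box core that Zeb factors bind, CAGGTG on one strand and CACCTG on the other, had 28 matches in 23 of the 72 shared regions (31.9%) of the epithelial loci, against 15.7% of all shared regions. For 5 of the genes the box-holding region nearest to the gene's 5′ end is shown, read on the gene's strand from mm10, without bases annotated as UTR, with the boxes in capitals. The stretches are chr12:24603376-24603565 on the plus strand for Grhl1, chr4:135573631-135573785 on the minus strand for Grhl3, chr19:5560116-5560300 on the minus strand for Ovol1, chr2:144330756-144330905 on the minus strand for Ovol2 and chr8:106137356-106137505 on the minus strand for Esrp2. The region of Grhl1 lies in an intron 31187 bases from the 5′ end, and the other 4 regions have their centres within 1 kb of a transcription start of their gene. Zeb2 is shown by its sole shared region, chr2:44988916-44989065 on the minus strand, which lies in a coding exon and holds no box.
Grhl1: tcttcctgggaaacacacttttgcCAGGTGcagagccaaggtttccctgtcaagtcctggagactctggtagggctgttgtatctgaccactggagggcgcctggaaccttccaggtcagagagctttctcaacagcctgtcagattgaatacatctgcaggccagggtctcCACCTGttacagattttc
Grhl3: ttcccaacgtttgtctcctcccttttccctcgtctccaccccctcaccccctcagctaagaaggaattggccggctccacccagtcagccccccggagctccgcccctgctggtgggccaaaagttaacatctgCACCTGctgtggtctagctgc
Ovol1: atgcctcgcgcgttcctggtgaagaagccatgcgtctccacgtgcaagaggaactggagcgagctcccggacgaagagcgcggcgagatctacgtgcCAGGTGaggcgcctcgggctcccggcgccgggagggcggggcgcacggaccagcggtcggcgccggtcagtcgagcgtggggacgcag
Ovol2: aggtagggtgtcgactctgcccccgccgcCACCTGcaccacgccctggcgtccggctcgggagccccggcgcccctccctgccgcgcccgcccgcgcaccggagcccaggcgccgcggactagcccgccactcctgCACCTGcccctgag
Esrp2: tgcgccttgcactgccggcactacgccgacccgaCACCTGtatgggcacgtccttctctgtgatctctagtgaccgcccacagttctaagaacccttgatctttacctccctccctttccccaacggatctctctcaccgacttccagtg
Zeb2: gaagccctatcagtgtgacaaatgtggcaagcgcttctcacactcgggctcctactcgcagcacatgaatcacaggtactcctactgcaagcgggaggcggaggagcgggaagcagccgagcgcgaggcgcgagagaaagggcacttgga

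The stomach label was checked against marker genes, beside the 66.4% of all protein-coding genes with a shared region at a promoter. All 12 stomach epithelium genes, among them Sox2, Gata4, Tff2 and Atp4a, had a shared region within 1 kb of a transcription start, as did all 4 general epithelial genes and 5 of 6 genes of mesenchyme and muscle, against 0 of 6 genes of other tissues. The loci of the last group were not empty away from promoters, with up to 7 shared regions at Ins2 and 5 at Cdx2. Barx1 of gut mesenchyme had a promoter peak in replicate 1 only. The lists held 139374 and 152779 peaks on the main chromosomes in replicates 1 and 2, of which 77.6% and 70.7% were shared. The number of reads is not given, so the depth is unknown and a weak site may have been missed. The signal of a peak is the authors' own value, a whole number of no stated scale, and was used only to rank peaks within a list. A rank is the percentile of the signal within the replicate's list. Shared regions of the whole genome had a median rank of 60.4 in replicate 1 and 63.8 in replicate 2.

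All 7 epithelial regulators had a shared region at a promoter, and so had Zeb1, while Zeb2 had none. A promoter was the 1 kb on either side of any start. Among all protein-coding genes 66.4% had a shared region at a promoter, so that an open promoter alone was the usual state. A locus with at least 1 shared region was found for 82.0% of protein-coding genes and for all 9 members. The groups separated by number and density. The epithelial loci held 6 to 18 shared regions each, with a median of 10, against 3 in Zeb1 and 1 in Zeb2, and over all protein-coding loci the median was 4. The epithelial loci held 72 regions over 447 kb, or 16.1 per 100 kb, against 4 over 357 kb, or 1.12 per 100 kb, in the Zeb loci, while the median protein-coding locus had 7.91 per 100 kb. Every epithelial locus lay above that median and both Zeb loci lay below it. The ranges of the 2 classes did not overlap in count or in density, and 1 class held only 2 genes. By count the epithelial loci lay above 64.9% (Ovol2) to 97.4% (Grhl2) of all protein-coding loci. By density they lay above 67.6% (Grhl2) to 99.1% (Ovol1). Zeb1 lay above 35.4% of loci by count and 20.3% by density, and Zeb2 above 18.0% and 18.6%.

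**Figure D1:**
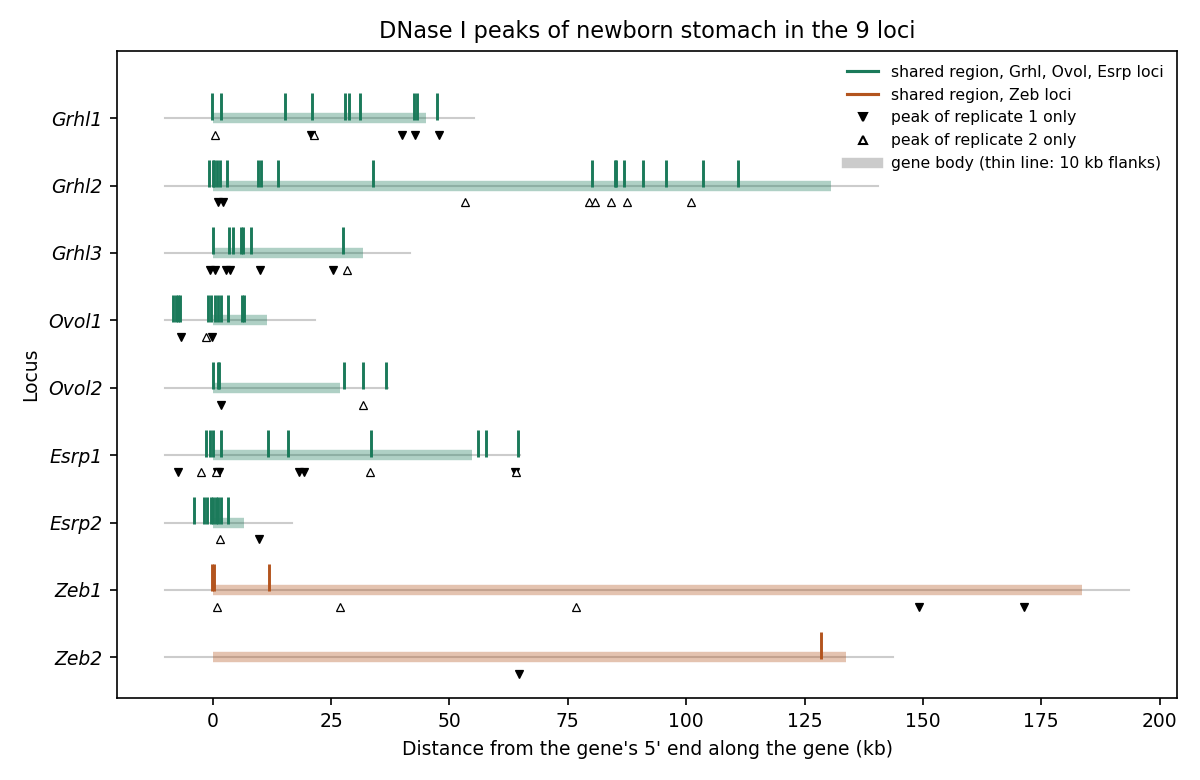
Map of the 9 loci, with the distance from the gene's 5′ end along the gene in kb on the x axis and 1 row per locus. Tall ticks are shared regions, 72 in the Grhl, Ovol and Esrp loci and 4 in the Zeb loci, triangles are peaks of a single replicate, thick bars are gene bodies and thin lines the 10 kb flanks. Of the epithelial ticks 25 of 72 are at starts of their gene and the others spread over introns and flanks, and most of the length of the 2 Zeb genes carries none.

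The Grhl genes differed in where their open sites lay. Grhl1 (chr12:24572283-24617391, plus strand) had 10 shared regions over 65.1 kb, or 15.4 per 100 kb, from 14 peaks in replicate 1 and 12 in replicate 2. Its promoter region, centred 122 bases before the start (all distances are from a region's centre), was the strongest of the locus with signals of 108 and 117 in replicates 1 and 2, at ranks of 97.7 and 98.1. The other regions of Grhl1 were 8 in introns, 4 of them in intron 8, and 1 downstream, and the promoter was the sole region at a start.

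Grhl2 (chr15:37233036-37363569, plus strand) had the most shared regions of the 9 loci, 18 over 151 kb, or 12.0 per 100 kb, from 20 and 24 peaks. The gene is known as a regulator of Cdh1 and of claudin genes in epithelia. Around its first start 4 regions had signals of 68 and 69, 96 and 89, 87 and 100, and 48 and 60 in replicates 1 and 2, at 755 and 45 bases before and 284 and 814 bases after the 5′ end. A further 6 regions lay deeper in intron 1, the strongest at 1484 bases with signals of 100 and 106. A second group stood in intron 8, between 80094 and 90894 bases from the 5′ end, where a region with signals of 103 and 104 had the highest mean rank of the locus. Next to it, regions with signals of 90 and 112 and of 95 and 105 lay 462 and 132 bases before an annotated noncoding start inside the gene. In replicate 2 these 3 regions ranked above every region at the first start, and in replicate 1 the region with the signal of 103 did. The last region at a start, 103544 bases into the gene, had signals of 46 and 56.

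Grhl3 (chr4:135541888-135573630, minus strand) had 7 shared regions over 51.7 kb, or 13.5 per 100 kb, from 13 and 9 peaks. Its promoter region, 290 bp wide, had signals of only 50 and 52 in replicates 1 and 2, at ranks of 60.4 and 49.4. In the stronger 50% of peaks of each replicate it was the sole epithelial promoter that was lost, which left 6 of 7. The strongest sites of Grhl3 lay in intron 1, where 5 regions lay 3339 to 8079 bases from the start. Of these the region at 3339 bases had the highest mean rank of the locus, with signals of 62 and 87, and the one at 8079 bases had 73 and 67.

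Both Ovol genes were open at the promoter and differed in density. Ovol1 (chr19:5549136-5560646, minus strand) had 12 shared regions over 31.5 kb, or 38.1 per 100 kb, from 15 and 13 peaks, the highest density of the 9 loci. Of these, 4 regions lay at the promoter of the neighbour Ap5b1. Without them Ovol1 had 8 regions, or 25.4 per 100 kb, below the 33.8 per 100 kb of Esrp2. The region with the highest mean rank of the locus, 284 bases before the Ovol1 start, had signals of 80 and 99. Among shared regions it was the strongest in replicate 2 but not in replicate 1, where a region at the Ap5b1 promoter had 85. A peak of replicate 1 alone, at the Ovol1 promoter, had a higher signal of 91. The other 4 shared regions at Ovol1 starts had signals of 42 to 62 in replicate 1 and 46 to 69 in replicate 2. Intron 1 held 3 more regions away from starts, the strongest 6235 bases from the 5′ end with signals of 81 and 87.

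Ovol2 (chr2:144305175-144332146, minus strand) had 6 shared regions over 47.0 kb, or 12.8 per 100 kb, the fewest of the 7 epithelial loci, from 7 peaks in each replicate. Its promoter region, 24 bases before the 5′ end, had signals of 87 and 93. A pair of weaker regions stood at later starts, 1005 bases in with signals of 51 and 62 and 1315 bases in with signals of 50 and 76. The other 3 regions lay downstream of the gene, the strongest with signals of 70 and 78 at 36635 bases from the 5′ end, and none lay in the gene body beyond those at the starts.

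The Esrp genes carried several of the strongest regions of the 9 loci. Esrp1 (chr4:11331933-11386783, minus strand) had 10 shared regions over 74.9 kb, or 13.4 per 100 kb, from 16 and 14 peaks. Of these regions, 1 lay downstream at the promoter of the neighbour Dpy19l4, with signals of 99 and 120 in replicates 1 and 2. At the Esrp1 start, regions 37 and 537 bases upstream had signals of 106 and 109 and of 107 and 113 in replicates 1 and 2, and a region 1497 bases upstream had 91 and 107. These 3 neighbours had ranks of 92.6 to 97.5 in replicate 1 and 95.5 to 97.2 in replicate 2. A hotspot, the authors' wider stretch of enriched cuts, reached 2413 bp in replicate 1 and 2382 bp in replicate 2 in this locus, the widest of the 9 loci. The 4 regions in introns of Esrp1 were weaker, with signals of 30 to 58 in replicate 1 and 37 to 67 in replicate 2.

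Esrp2 (chr8:106130319-106136974, minus strand) had 9 shared regions over 26.7 kb, or 33.8 per 100 kb, from 10 peaks in each replicate. The strongest of all 76 regions in replicate 1 lay in its intron 2, 104 bases before an annotated noncoding start, with signals of 118 and 115. At the 5′ end a region had signals of 112 in both replicates, and 1316 bases upstream another had 104 and 110. The other 4 regions at starts of Esrp2, from 456 bases before to 3193 bases after the 5′ end, had signals of 75 and 79, 79 and 89, 47 and 54, and 51 and 57. Of the 9 regions, 6 were at starts and 3 upstream.

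Zeb1 (chr18:5591860-5775467, plus strand) had 3 shared regions over 204 kb, or 1.47 per 100 kb, from 5 and 6 peaks, and all 3 lay at annotated starts. The region 129 bases before the 5′ end had signals of 75 and 92 in replicates 1 and 2, and the one 280 bases after it had 36 and 54. A further region, 11840 bases into intron 1 and 43 bases before an annotated noncoding start, had signals of 67 and 84. The Zeb1 promoter was thus open with a rank of 84.9 and 89.3, below those of the regions nearest to the 5′ ends of Grhl1, Ovol1, Ovol2, Esrp1 and Esrp2 and above that of Grhl3 in both replicates, and below that of Grhl2 in replicate 1 but above it in replicate 2. Beyond the region at 11840 bases, to the 3′ end of the gene and for another 44.3 kb, no shared region was found. Single-replicate peaks in introns had signals of 11 and 17 in replicate 1 and of 21 and 38 in replicate 2. Noncoding genes also start at the promoters of Zeb1, Grhl2, Ovol1, Ovol2 and Esrp2, and a region there cannot be assigned to one of the genes.

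Zeb2 (chr2:44983632-45117395, minus strand) had 1 shared region over 154 kb, or 0.650 per 100 kb, with signals of 32 and 42 and ranks of 26.6 and 31.2. It lay 128404 bases from the 5′ end in the coding sequence of an exon near the 3′ end of the gene, the sequence shown above. None of the 29 annotated starts had a promoter peak in either replicate. The only other peak of the locus was in an intron in replicate 1 alone, with a signal of 32. The next shared regions outside the gene were 67.9 kb upstream and 53.9 kb downstream. With flanks of 50 kb the epithelial loci held 11 to 28 regions, Zeb1 held 5 and Zeb2 still held 1.

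**Figure D2:**
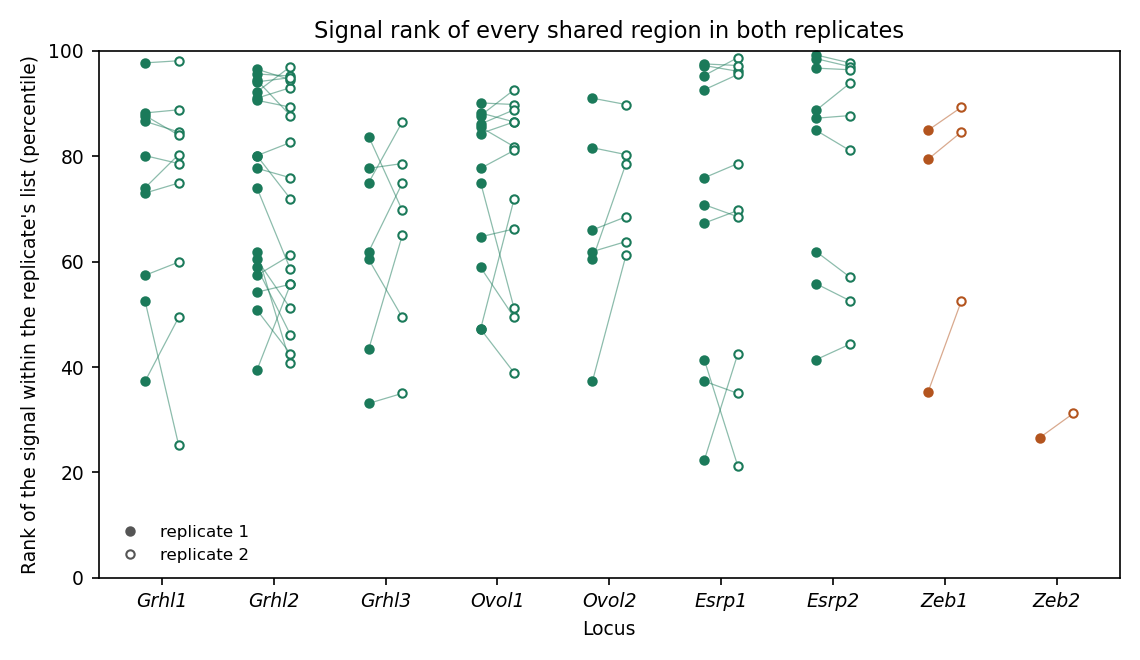
Percentile rank of the signal of every shared region within each replicate's own list (y axis) by locus (x axis). Filled points are replicate 1, open points replicate 2, and lines join the same region. Grhl1, Grhl2, Esrp1 and Esrp2 have regions above a rank of 95 in both replicates, and the sole Zeb2 region sits at 26.6 and 31.2.

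The regions of the epithelial loci were also stronger than shared regions at large, with median ranks of 76.8 in replicate 1 and 78.6 in replicate 2. Of these 72 regions 30 lay at promoters of coding genes, against 30336 of all 105606 shared regions. Ranks were not compared for promoter regions alone. The 4 Zeb regions had medians of 57.3 and 68.6. Of the peaks in the epithelial loci, 73 of 95 in replicate 1 (76.8%, 95% Wilson interval 67.4 to 84.2) and 73 of 89 in replicate 2 (82.0%, 72.8 to 88.6) were shared, against 4 of 7 in each replicate in the Zeb loci (57.1%, 25.0 to 84.2). These intervals take each peak as independent and cover counting error only. With 7 peaks per replicate in the Zeb loci they are wide, and no comparison of the classes is drawn from them. By position of their centres, 25 of the 72 epithelial regions were at starts of their gene, 32 in introns, 8 upstream and 7 downstream, and none in exons away from starts. Of the 4 Zeb regions 3 were at starts and 1 in an exon.

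The epithelial loci were 26.7 to 151 kb long, and the Zeb loci, at 204 and 154 kb, were longer. Against protein-coding loci within 20% of its length, Ovol1, with the 4 regions at Ap5b1 counted, had more shared regions than 98.5%, Esrp2 than 95.7%, Grhl2 than 90.6%, Grhl1 than 86.1%, Esrp1 than 82.1%, Grhl3 than 70.2% and Ovol2 than 63.2%. Zeb1 had more than 10.6% of 724 such loci, whose median was 10 regions, and Zeb2 more than 2.44% of 1107 loci, whose median was 8. Grhl3 and Ovol2 therefore lay nearer the middle of loci like them than the other epithelial genes.

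**Figure D3:**
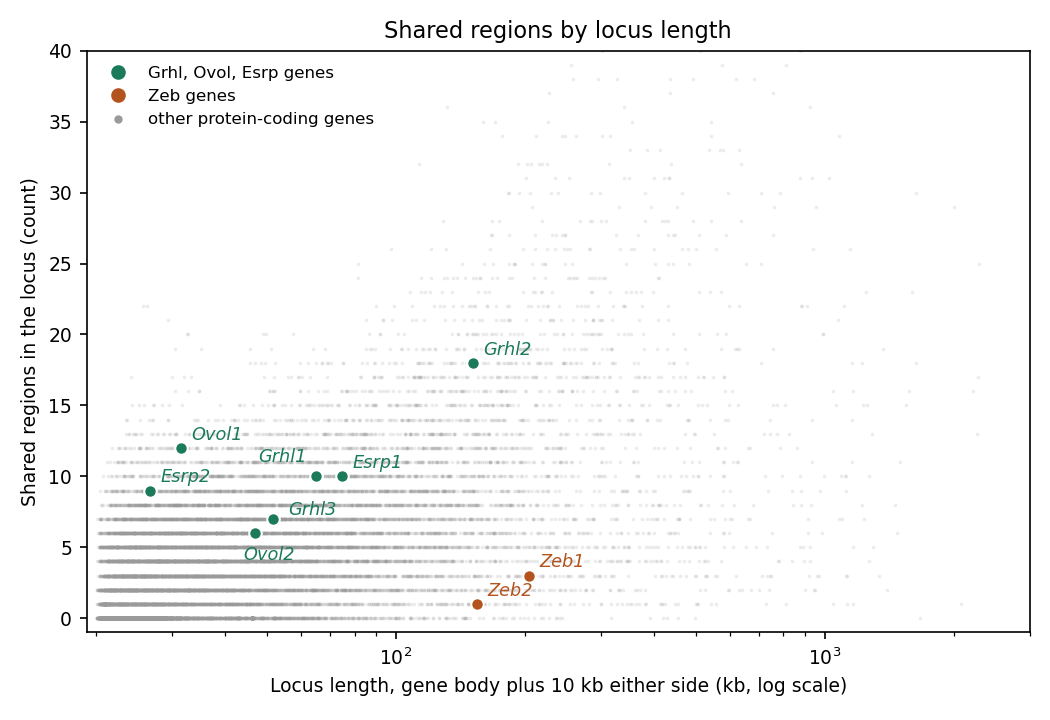
Shared regions per locus (y axis, count) against locus length in kb (x axis, log scale) for the protein-coding genes. Green points are the 7 epithelial regulators, orange points the Zeb genes and grey points other genes, and 31 loci with more than 40 regions and 1 longer than 3000 kb are outside the frame. Zeb1 with 3 and Zeb2 with 1 region lie low among loci of their length.

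The share of a locus covered by hotspots separated the classes as well. Hotspots covered 6.65% and 6.54% of the Grhl1 locus in replicates 1 and 2, 4.69% and 4.64% of Grhl2, and 5.32% and 4.16% of Grhl3. For Ovol1 the cover was 13.9% and 14.5%, for Ovol2 4.60% and 4.39%, for Esrp1 8.51% and 7.23%, and for Esrp2 18.2% and 18.0%. Zeb1 had 0.697% and 0.618% and Zeb2 0.140% and 0.116%. The median protein-coding locus had 2.90% and 3.30%, which lay below every epithelial locus and above both Zeb loci in each replicate. Among all protein-coding loci, 68.3% (Ovol2) to 99.5% (Esrp2) had less cover than an epithelial locus in replicate 1. In replicate 2 the range was 58.8% (Grhl3) to 99.0% (Esrp2), so some epithelial loci lay near the middle. For Zeb1 the shares were 22.3% and 20.8%, and for Zeb2 16.2% and 16.0%. The highest listed −log10 q value, 100, was reached by 38.9% and 39.4% of all hotspots in replicates 1 and 2, and by none of the few hotspots of Zeb2, 2 in replicate 1 and 1 in replicate 2. At Zeb1 it was reached by 3 of 5 and 2 of 6 hotspots. Grhl3 had 4 of 13 and 1 of 9, and Ovol1 had 3 of 11 and 5 of 11, so this value did not separate the classes.

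The base composition of the promoters was also read, and its part in the counts of regions was not tested. A promoter was called CpG-rich at an observed to expected CpG ratio of at least 0.6 and at least 55% GC. Both were taken in the 500 bases on either side of the gene's annotated start with the highest ratio. That start was picked from 29 in Zeb2 and 11 in Zeb1, while Grhl3 had only 1. By this rule 5 of the 7 epithelial regulators and both Zeb genes were CpG-rich, against 9750 of 21911 protein-coding genes. Grhl3 had a ratio of 0.54 with 54.5% GC and Esrp1 0.59 with 57.7% GC, and both had a shared promoter region. Zeb2 had a ratio of 0.83 with 61.3% GC and Zeb1 0.97 with 70.7% GC. Among these 9750 genes 94.3% had a shared region within 1 kb of any start, which need not be the CpG-rich one. Zeb2 belonged to the 293 (3.01%) that had no promoter peak in either replicate.

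Of the 10 motifs searched, the Zeb box was the one most often found, in the epithelial loci as in all shared regions. It was in 23 of 72 regions (31.9%) of the epithelial loci and in 1 of 4 of the Zeb loci, at Zeb1, while 15.7% of all shared regions had one. By gene, the box was in 3 of 10 regions of Grhl1, 4 of 18 of Grhl2, 3 of 7 of Grhl3, 3 of 12 of Ovol1, 2 of 6 of Ovol2, 4 of 10 of Esrp1 and 4 of 9 of Esrp2. It stood in 11 of 30 regions at promoters of coding genes, against 14.0% of such regions in the genome, and in 12 of 42 regions away from them, against 16.3%. The same letters read backwards were in 2 of 72 regions (2.78%), against 7.32% of all shared regions. Widths were alike, with a median of 170 bp in both sets, and the GC content was higher in the epithelial loci, with a median of 55.2% against 51.2%, and its part in the share of boxes was not tested. Of the 28 matches 3 sat on a 5′ splice site of the gene, whose usual letters resemble the box, as in the Ovol1 sequence above and in a pair of Esrp2 regions, and without these 20 regions still held a box. A match is a string of letters, not a measured binding site.

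**Figure D4:**
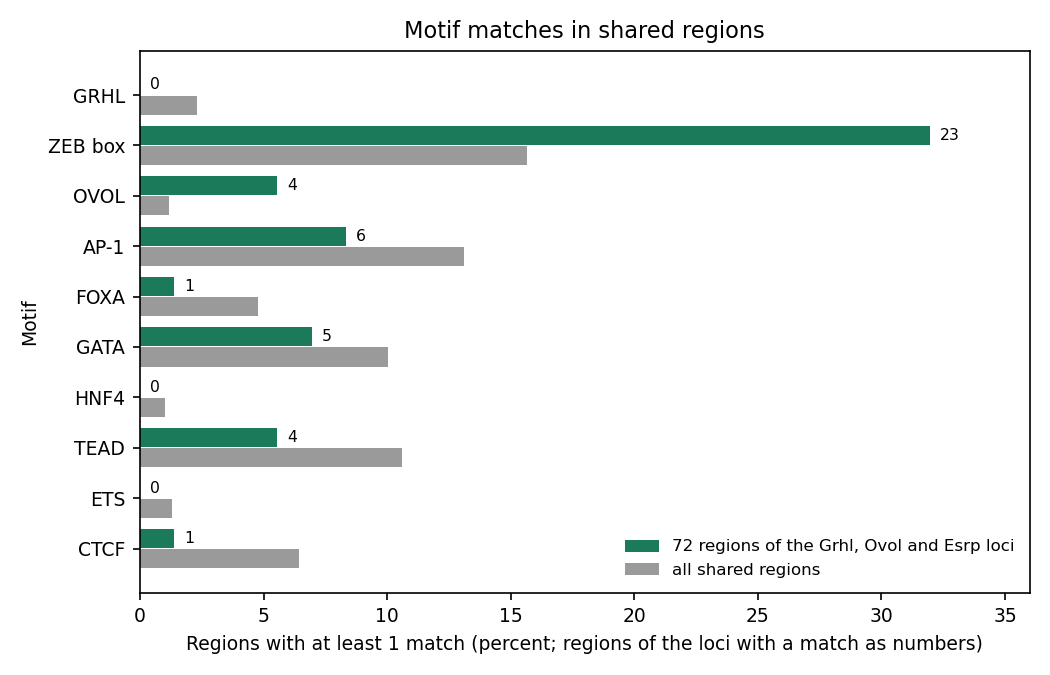
Percent of shared regions with at least 1 match to each of 10 motifs (x axis), for the 72 regions of the Grhl, Ovol and Esrp loci (green, with the number of regions) and for all shared regions (grey). The Zeb box (31.9% against 15.7%) and the Ovol motif (5.56% against 1.17%) have longer green bars, and the other 8 motifs have shorter green bars or none.

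The Ovol motif, CCGTTA, was in 4 of 72 regions (5.56%) of the epithelial loci and in 1 of 4 of the Zeb loci, against 1.17% of all shared regions. The matches were in an intron of Grhl2, in an intron of Grhl3, upstream of Ovol1 at the promoter of Ap5b1, and in the promoter region of Ovol2 itself, the one centred 24 bases before the 5′ end. In the Zeb loci the promoter region of Zeb1 that lies 280 bases after the 5′ end held 2 matches. The counts are small, and a single region more or less would move each share.

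No region of the 9 loci held the Grhl motif, AACCNGTT, which 2.30% of all shared regions held. For the other motifs, with the share of all shared regions after each, the AP-1 motif TGANTCA was in 6 regions of the epithelial loci and 1 of the Zeb loci (13.1%), the GATA motif AGATAA in 5 and 0 (10.1%), the TEAD motif GGAATG in 4 and 0 (10.6%), the FOXA motif TGTTTAC in 1 and 0 (4.77%) and the CTCF motif in 1 and 0 (6.42%). The HNF4 motif CAAAGTCCA (1.03%) and the ETS motif CCGGAAGT (1.30%) were in none. All motifs were searched on both strands. At these shares the 72 regions would hold few matches of the rarer motifs, so a count of 0 says only that these letters were not in these windows.

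Of the 4 relatives of the members 3 had a shared promoter region, near the 66.4% of all protein-coding genes. Of the Tfcp2 branch of the grainyhead family, Tfcp2 and Tfcp2l1 had 7 shared regions each and Ubp1 had 4, each with a shared promoter region. Ovol3, another Ovol gene, had 5 shared regions in its locus and no promoter peak in either replicate.

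The other regulators of the mesenchymal state were, as a list, near all protein-coding genes. Of 8 genes 6 had a shared promoter region, against 66.4% of all protein-coding genes, and the medians were 3 shared regions and 7.06 per 100 kb, against 4 and 7.91. Snai1, Snai2 and Snai3, zinc finger repressors that also bind E-boxes, had 2, 3 and 3 shared regions. Foxc2 had 6, Prrx1 had 2 over 88.6 kb, and Tcf4, which encodes a basic helix-loop-helix E protein, had 17 over 366 kb. Twist2 had 4 with a promoter peak in replicate 2 only. Twist1 had no peak at all in its 22.2 kb locus in either replicate, and its promoter was CpG-rich with a ratio of 0.87. With the Zeb genes added, Zeb2 and Twist1 were the 2 of 10 mesenchymal regulators with no promoter peak in either replicate. The 66.4% of all protein-coding genes is for a shared promoter region, and a gene without one may still have a peak in a single replicate. The share of all protein-coding genes with no promoter peak in either replicate is not given here. Zeb2 and Twist1 were both CpG-rich, and of the 9750 CpG-rich genes 293 (3.01%) had no promoter peak in either replicate.

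Epithelial genes that Grhl factors are known to activate, or Zeb factors to repress, had a shared promoter region in 21 of 21 cases, against 66.4% of all protein-coding genes. The medians were 8 shared regions and 25.6 per 100 kb, against 4 and 7.91, in a set of genes picked as epithelial. The most were 19 in Cdh1, which encodes E-cadherin, 14 in Ocln, which encodes occludin of tight junctions, and 13 in Prss8, which encodes a membrane-anchored protease. The fewest were 2, in Marveld2.

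The microRNA genes opposed to Zeb had 4 to 7 shared regions each around their hairpins, counted within 10 kb of either hairpin end. In the mir-200b, mir-200a and mir-429 cluster on chromosome 4, Mir200b and Mir200a each had 7 shared regions and Mir429 had 5, many of them the same regions. The strongest, 4170 bases upstream of the mir-200b hairpin, had signals of 117 and 120 in replicates 1 and 2. Mir200c and Mir141 on chromosome 6 shared 4 regions, among them one 520 bases upstream of the mir-200c hairpin with signals of 98 and 104. Another, with 114 and 115, lay 6199 bases downstream of the 5′ end of that hairpin. Whether regions near the hairpins lie at promoters of neighbouring coding genes was not recorded, so they cannot be assigned to the microRNA genes. Mir205 on chromosome 1 had 4, the strongest 2700 bases upstream with 102 and 114. A shared region within 1 kb of the hairpin start was found for 4 of the 6 genes, not for Mir200b and Mir205. Mir200a and Mir429 counted the same region, and Mir200c and Mir141 had one in common. The share over all microRNA genes is not given here, and the count is near the 66.4% of protein-coding genes with a shared promoter region. The mature 3p arms fall into a pair of seed groups, and they are shown with miR-205-5p because these are the sequences by which the family recognises its targets, from RefSeq on GRCm38.p6, with bases 2 to 8 in capitals. Of the 6, miR-200b-3p, miR-200c-3p and miR-429-3p share one seed, and miR-200a-3p and miR-141-3p another.
miR-200b-3p: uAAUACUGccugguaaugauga
miR-200c-3p: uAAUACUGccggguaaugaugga
miR-429-3p: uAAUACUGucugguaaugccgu
miR-200a-3p: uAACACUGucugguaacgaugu
miR-141-3p: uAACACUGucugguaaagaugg
miR-205-5p: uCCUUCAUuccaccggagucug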

How the data were processed

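DNase-seq of newborn mouse stomach was read from the peak and hotspot lists of 2 replicates, on mm10. The peak lists hold the authors' signal, a whole number of no stated unit, and the hotspot lists hold the authors' −log10 q value, as the layout of the deposited files gives them. Aligner, peak caller, thresholds and depth: not given in the sources used here. No interval went beyond a chromosome end of GRCm38.p6. Peaks on the 19 autosomes, X and Y were kept, and overlapping peaks of both replicates were joined into shared regions. Protein-coding genes were those of GENCODE M21, with 27 repeated symbols dropped. Motifs were searched with Python 3.11.15, pysam 0.24.0 and pandas 2.3.3. Joining and motif search were tested on simulated data. The members and gene lists were chosen with earlier results of these data known. Named were all members, the lists of relatives, mesenchymal regulators and microRNAs whole, of the epithelial targets the 3 with the most shared regions and any without a shared promoter region, neighbours whose promoter lies in a locus, regions at members' starts, and the strongest region of each locus. Outside this rule, Marveld2 and a few strong or downstream regions, with the single-replicate peaks of the Zeb genes and of Ovol1, were named after their values were seen. Sequences exclude annotated UTR, and some are not reported here.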

Additional observations from a re-analysis of the deposited data

How the results depend on the processing

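Of 54 alternatives over 10 results, 38 left the value within its limit and 16 moved it. The limit was 1.5 times for a count and, tighter, the SD between the single-replicate values for a density, which was 0 for the Zeb loci. The epithelial loci held 132 shared regions with flanks of 50 kb, against 72 with 10 kb. Their density was 12.3 per 100 kb with the stronger 50% of peaks, 12.7 with hotspots of both replicates, 13.1 with flanks of 50 kb, 15.0 without regions at promoters of other coding genes, and 19.9 to 21.2 with a single replicate. The Zeb loci held 2 shared regions with the stronger 50% of peaks and 7 with either replicate alone. Their density was 0.560 per 100 kb with the stronger 50% of peaks, 0.839 with hotspots, 0.945 in the gene bodies alone, 1.16 with flanks of 50 kb, and 1.96 with either replicate alone. In each of these settings the epithelial density was the higher. No paired analysis was possible because there is only 1 group. Depth is unknown, so weak sites that the lists lack, above all in the Zeb loci, may have been missed, and the signal cannot be compared between replicates.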
